A study of Mus musculus with 12 samples.

Results

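The genes described here are 10 genes of the injury response that runs through the receptor subunit gp130 and the transcription factor STAT3: the secreted factors Lif, Edn2 and Fgf2, the receptor subunits Il6st (gp130) and Osmr, Stat3 itself and its feedback inhibitor Socs3, and 3 genes that this pathway is known to induce, Cebpd, Serpina3n and Timp1. They were chosen by symbol, with earlier results of these data known. They are 10 of the 35976 genes in the count table, and all 10 had reads among the 24484 genes with at least 1 count. Their levels were followed in whole mouse retina in 4 groups of 3 libraries. C57BL/6 pups, labelled WT, either stayed in room air (normoxia) or went through oxygen-induced retinopathy (OIR), in which pups breathe 75% oxygen from postnatal day 7 to day 12, lose part of their retinal capillaries and then meet relative hypoxia on return to room air; retinas were taken at postnatal day 15, 3 days after that return. Pups labelled Caspase1 knockout (Casp1 KO) gave a normoxia group and an OIR group of the same labels, also 3 days after OIR. The knockout allele, the age of the Casp1 KO pups and their oxygen level are not given in the sources used here, nor is it said whether a library came from 1 pup or from several, so the spread between libraries may be partly technical. OIR was compared with normoxia within each genotype label, and the genotype labels with each other.

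The genotype labels did not match the reads of the targeted gene. Casp1, which encodes the inflammatory protease caspase-1 and lies on chromosome 9 from 5298517 to 5307265, had 7 reads over the 6 libraries labelled WT, with 0 to 3 in each, and 126 over the 6 labelled Casp1 KO, with 10 to 45 in each. The part of the gene removed in the knockout is not given, so 3′ reads may lie outside it. Whether the labels were exchanged, or Casp1 is near the floor in WT retina, was not tested. Groups are therefore called by their labels, and every direction between genotype labels below carries this doubt, whereas OIR and normoxia were compared inside each label. Total counts ran from 3391203 to 22815830 per library, with WT normoxia replicate 2 the deepest, and 3 reads, the limit that a count of 0 allows, equalled 0.131 to 0.885 CPM, the count scaled to library size that is used as the level below. WT OIR replicate 3 stood apart from its group, with chi-squares divided by their degrees of freedom of 15.2 and 14.2 against the other 2 libraries and of 5.41 between those. The retinal label was borne out by its markers, since 5 rod genes summed to between 32200 and 39140 CPM in all 12 libraries.

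Cytokines of the interleukin-6 family, such as leukemia inhibitory factor and oncostatin M, bind receptors that share the gp130 subunit. The receptors activate Janus kinases, which phosphorylate STAT3, and STAT3 then turns on target genes, among them Socs3, whose product shuts the receptor complex off again. In the retina this pathway is known from injury: stressed photoreceptors make endothelin 2, and Müller glia, the radial support cells, release leukemia inhibitory factor, basic fibroblast growth factor and acute-phase proteins.

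At 3 days after OIR, Stat3 rose in both genotype labels, and so did the target genes Cebpd and Serpina3n. The ligand Edn2 was called higher in both labels too, but its groups overlapped in the Casp1 KO label. In the libraries labelled WT, 4 of the 10 genes were called higher (adjusted p under 0.05 in edgeR's quasi-likelihood test, adjusted over all genes tested), against 1.58% of all 22853 genes tested, and 0 were called lower, against 2.29% of all genes. In the libraries labelled Casp1 KO, 5 of the 10 were called higher, Socs3 being the fifth, against 2.61% of 22387 genes, and 0 lower, against 2.03%. At an unadjusted p under 0.05 there were 8 genes in the WT label, where 12.6% of all genes passed, and 5 in the Casp1 KO label, where 13.6% did, and DESeq2 called 4 and 5 genes. The median log2 fold change of the 10 genes was 1.85 in the WT label, where that of all genes was 0.04. It was also 1.85 when the 2 genes without normoxia reads were set against a floor of 3 reads. Without Lif, which had too few reads for a fold change, it was 2.26. In the Casp1 KO label the median was 1.79, or 1.82 without Lif, beside 0.00 for all genes. All 3 OIR libraries lay above all 3 normoxia libraries for 7 of the 10 genes in the WT label, where 8.53% of all genes tested did so, and for 5 of the 10 in the Casp1 KO label, where 8.56% did. Of the 7, Fgf2 was apart by few reads only. Because the 10 genes were chosen with earlier results of these data known, the shares of all genes set beside them are a description and not an independent test. In whole tissue, more cells that carry a transcript and more of it per cell cannot be told apart.

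**Figure D1:**
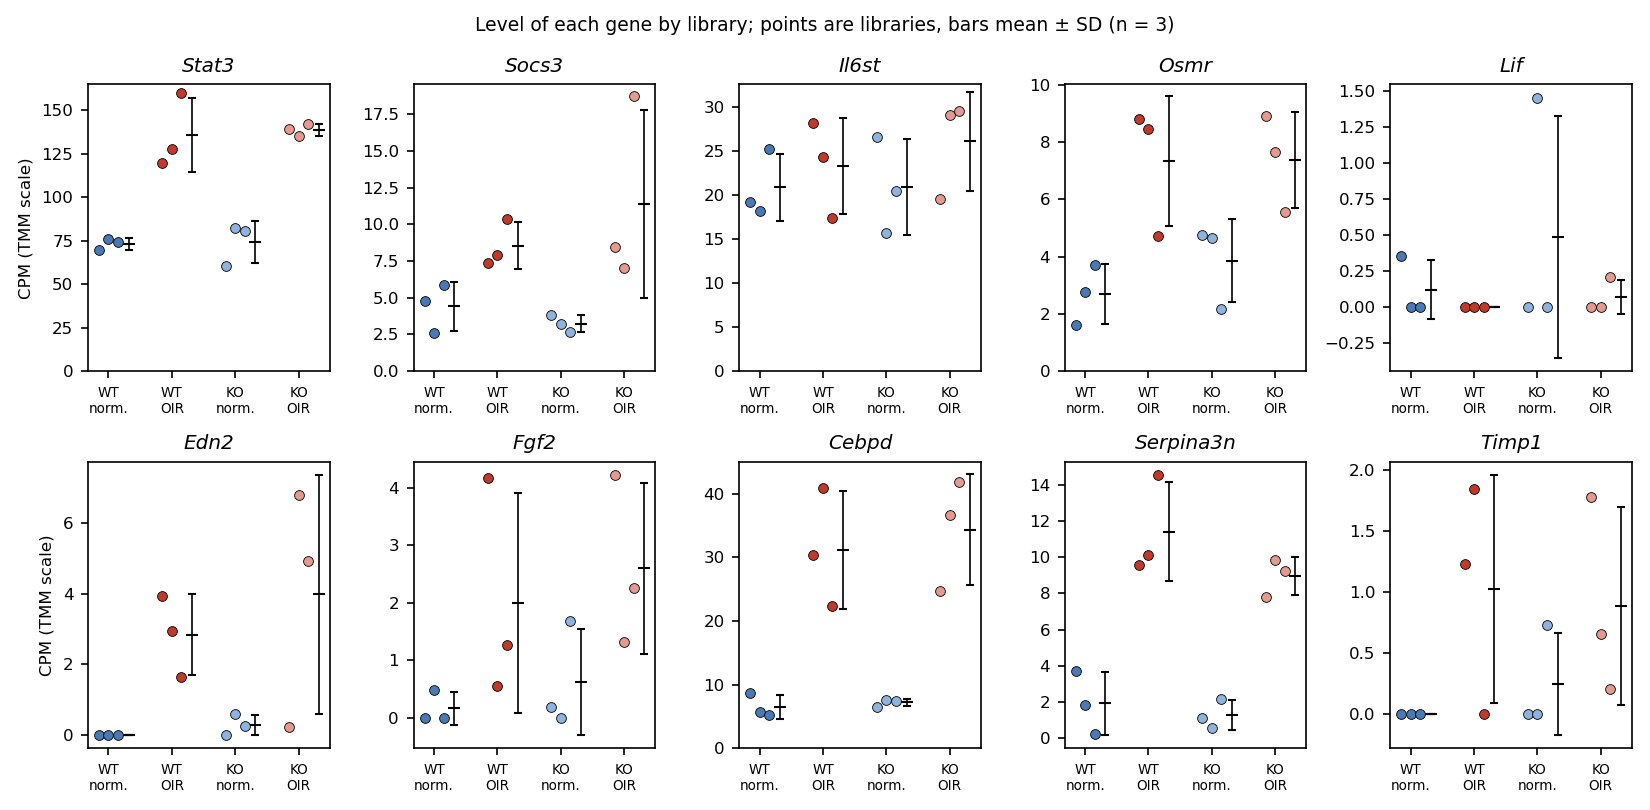
Level of each of the 10 genes in CPM (TMM scale, linear axis) in the 12 libraries, by genotype label (WT, KO for Casp1 KO) and condition (norm. for normoxia). Points are libraries and bars the mean ± SD of 3; Stat3, Cebpd and Serpina3n separate OIR from normoxia in both labels, while Il6st overlaps and Lif stays at 0 in most libraries.

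Stat3 encodes the transcription factor that the receptors activate, and it is itself a STAT3 target. It lies on chromosome 11 (100885098 to 100939540, minus strand; GRCm38, GENCODE vM21), with 24 exons in its longest form. In the WT label it measured 69.5, 75.6 and 74.2 CPM in the normoxia libraries and 119.5, 127.8 and 159.7 CPM in the OIR libraries. The lowest OIR library was far above the highest normoxia library. The rise was 0.88 ± 0.15 on the log2 scale (estimate ± SE, edgeR adjusted p = 1.002e-06), from a mean of 73.1 ± 3.22 to 135.7 ± 21.3 CPM (SD, n = 3). The Casp1 KO label gave 60.2, 82.2 and 80.4 CPM in normoxia and 139.2, 134.9 and 141.9 CPM in OIR, again without overlap, and a log2 fold change of 0.92 ± 0.12 (edgeR adjusted p = 3.05e-12). Stat3 was the most abundant of the 10 genes, with 283 to 1699 reads per library, and its call held in both labels under every alternative that was run. The 3′ end of Stat3 overlaps that of Stat5a on the opposite strand, and whether the counting used the strand is not given. Stat5a itself stood at 1.75 ± 0.66 CPM in WT normoxia and 3.21 ± 1.52 CPM in WT OIR (SD, n = 3), a small fraction of the Stat3 level. The Stat5a level does not show how reads of the shared stretch were counted.

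Socs3 encodes the inhibitor that STAT3 induces against its own receptors. It lies on chromosome 11 (117966079 to 117970047, minus strand), with 2 exons. Its promoter was the only one among those of the 10 genes, in windows of 300 bases around the start site, with the STAT motif, which is why it is shown. RefSeq (GRCm38.p6) gave such windows for 9 of the 10 genes, from 250 bases before to 50 after the start, with Cebpd not in the table; the motif TTCNNNGAA, which reads the same on both strands, occurred in 1 of the 9 and in 8.3% of all 32851 promoters. The window reads on the minus strand, 5′ to 3′, with the match in capitals at 154 bases before the start site:
Socs3, chr11:117969452-117969601: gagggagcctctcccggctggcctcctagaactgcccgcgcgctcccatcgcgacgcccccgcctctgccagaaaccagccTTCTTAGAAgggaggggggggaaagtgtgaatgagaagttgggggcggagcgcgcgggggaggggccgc
The start site used is that of RefSeq, and the stretch shown lies inside the bounds of Socs3 in GENCODE given above. A match of letters is a description and not a measured binding site, and 8 of the 9 windows have none.

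In the WT label Socs3 measured 4.80, 2.58 and 5.87 CPM in normoxia and 7.35, 7.92 and 10.4 CPM in OIR. Every OIR library was above every normoxia library, but the log2 fold change of 0.995 ± 0.463 did not pass the adjusted threshold (edgeR adjusted p = 0.314). In the Casp1 KO label the normoxia libraries were even, at 3.83, 3.20 and 2.66 CPM, and the OIR libraries gave 8.45, 7.01 and 18.7 CPM. Replicate 3 stood well above the other OIR libraries, and the rise was 1.82 ± 0.43 (edgeR adjusted p = 0.00162). Without that library the log2 fold change was 1.25 and the adjusted p 0.264, so the call rested on it.

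Neither receptor subunit was called in either label. Il6st, on chromosome 13 (112464070 to 112510086, plus strand), encodes gp130, the signalling subunit that all receptors of the family share. It measured 19.2, 18.3 and 25.2 CPM in WT normoxia and 28.2, 24.3 and 17.5 CPM in WT OIR, so that the lowest of all 6 libraries was an OIR library. The log2 fold change was 0.15 ± 0.25 (edgeR adjusted p = 0.821), with a 95% interval from -0.34 to 0.64. In the Casp1 KO label the levels were 26.6, 15.7 and 20.5 CPM in normoxia and 19.6, 29.1 and 29.6 CPM in OIR, again overlapping, with a log2 fold change of 0.32 ± 0.23 (edgeR adjusted p = 0.574) and an interval from -0.13 to 0.77. With at least 54 reads in every library, Il6st was not limited by depth. The upper ends of both intervals lay below the fitted rises of Stat3, 0.88 and 0.92. They lay within the 95% intervals of Stat3, 0.59 to 1.18 in WT and 0.69 to 1.15 in Casp1 KO. The difference between the 2 genes was not tested.

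Osmr, on chromosome 15 (6813577 to 6874969, minus strand), encodes the subunit that pairs with gp130 to receive oncostatin M. In the WT label it measured 1.60, 2.76 and 3.70 CPM in normoxia and 8.82, 8.47 and 4.73 CPM in OIR, and in the Casp1 KO label 4.74, 4.65 and 2.17 CPM in normoxia and 8.89, 7.67 and 5.55 CPM in OIR. All 6 OIR libraries lay above all 3 normoxia libraries of their own label. Neither label passed the threshold on its own, with log2 fold changes of 1.44 ± 0.54 (edgeR adjusted p = 0.126) and 0.94 ± 0.48 (edgeR adjusted p = 0.373). Of 12 alternatives in the WT label, 1 called Osmr: leaving out WT OIR replicate 3, the library that stood apart, gave 1.68 with an adjusted p of 0.0428. The adjusted p was up to 0.416, without WT normoxia replicate 1. In the Casp1 KO label 0 of 12 alternatives called it.

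Of the 3 ligands, Edn2 alone was called. Edn2 encodes endothelin 2, a small vasoactive peptide that injured photoreceptors are known to make, and lies on chromosome 4 (120161206 to 120167360, plus strand). None of the 3 WT normoxia libraries, the deepest included, had an Edn2 read, and the WT OIR libraries had 16, 16 and 9, or 3.92, 2.95 and 1.64 CPM. Set against a floor of 3 reads over the normoxia group, Edn2 was 29.8-fold higher in OIR (edgeR adjusted p = 0.00221). The counting interval of the pooled ratio began at 23.1. The call held in 11 of 11 alternatives that gave a value. The Casp1 KO label had 0, 2 and 1 reads in normoxia and 1, 31 and 24 in OIR. OIR replicate 1 was thus as low as the normoxia libraries, and the groups overlapped. The pooled reads differed by a ratio of 17.5, with a counting interval from 5.69 to 87.5 (edgeR adjusted p = 0.00646), and the adjusted p was 0.0588 without normoxia replicate 1, 0.292 without OIR replicate 2 and 0.0752 without OIR replicate 3.

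Fgf2, basic fibroblast growth factor, lies on chromosome 3 (37348346 to 37410108, plus strand), and its 3′ end overlaps Nudt6, which is transcribed from the other strand. Fgf2 had 0, 11 and 0 reads in WT normoxia, all from the deepest library, and 17, 3 and 7 in WT OIR. In CPM the OIR libraries, at 4.16, 0.55 and 1.27, lay above the normoxia libraries, whose highest was 0.49. The 0.55 came from 3 reads, the limit that a count of 0 allows. The Casp1 KO label had 1, 0 and 7 reads in normoxia and 19, 6 and 11 in OIR, and its groups overlapped. The log2 fold changes were 3.11 ± 1.48 (edgeR adjusted p = 0.334) and 2.02 ± 1.05 (edgeR adjusted p = 0.381), neither past the threshold. Nudt6, a gene named here after its values were seen because it shares bases with Fgf2, was higher in OIR in both labels, with 9.41, 3.61 and 5.65 CPM against 20.8, 11.4 and 11.6 CPM in WT and a mean of 6.13 ± 1.95 against 18.7 ± 4.12 CPM in Casp1 KO (SD, n = 3). Its log2 fold changes were 1.26 ± 0.36 (edgeR adjusted p = 0.0198) and 1.65 ± 0.33 (edgeR adjusted p = 5.66e-05). Without a stated strand setting, reads of Fgf2 and Nudt6 in the shared stretch cannot be told apart.

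Lif, leukemia inhibitory factor, is the gp130 ligand that Müller glia are known to release after photoreceptor injury, and it lies on chromosome 11 (4257557 to 4272514, plus strand). It was at the edge of detection, with 8 reads in all 12 libraries. WT normoxia replicate 1 had 2 reads, Casp1 KO normoxia replicate 2 had 5 and Casp1 KO OIR replicate 3 had 1, and the other 9 libraries had 0. No rise of Lif was therefore detectable at this depth in either label, and the pooled reads of the Casp1 KO label gave a ratio of 0.188 of OIR to normoxia with a counting interval from 0.00397 to 1.68. The Lif promoter is shown because it was 1 of 2 among the 9 windows, with that of Osmr, to hold the motif TGANTCA of AP-1, the dimer of Fos and Jun proteins. The motif occurs in 7.81% of all promoters, and the match, in capitals on the plus strand, lies 228 bases before the start site:
Lif, chr11:4257318-4257467: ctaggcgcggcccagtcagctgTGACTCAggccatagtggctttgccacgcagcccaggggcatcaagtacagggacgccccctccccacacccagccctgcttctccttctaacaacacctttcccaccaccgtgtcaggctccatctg
In Osmr the match lies 3 bases after the start, within the transcript, and both genes that hold it were uncalled in each label.

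Cebpd and Serpina3n had the largest fitted fold changes of the 6 genes with reads in every library. Cebpd encodes C/EBP delta, a transcription factor of the acute-phase response, and is a gene of 1 exon on chromosome 16 (15887286 to 15891031, plus strand). It measured 8.70, 5.65 and 5.22 CPM in WT normoxia and 30.4, 40.9 and 22.4 CPM in WT OIR, with a wide gap between the groups. The rise was 2.26 ± 0.28 on the log2 scale (edgeR adjusted p = 1.54e-12). In the Casp1 KO label it went from 6.56, 7.55 and 7.49 CPM to 24.7, 36.6 and 41.8 CPM, a rise of 2.27 ± 0.27 (edgeR adjusted p = 6.55e-15). Cebpd kept its call in both labels under every alternative. Its 3′ end lies over Spidr on the other strand, which had a mean of 1.36 ± 1.08 CPM in WT normoxia and 1.61 ± 0.66 CPM in WT OIR (SD, n = 3). The Spidr level does not show how reads of the shared stretch were counted.

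Serpina3n encodes a secreted inhibitor of serine proteases that is a common mark of reactive glia, and lies on chromosome 12 (104406729 to 104414329, plus strand). In the WT label normoxia gave 3.73, 1.83 and 0.22 CPM and OIR 9.55, 10.1 and 14.5 CPM. WT normoxia replicate 3, at 1 read, was the lowest of all 12 libraries, and the groups were apart. The rise was 2.53 ± 0.48 (edgeR adjusted p = 2.28e-05). In the Casp1 KO label normoxia gave 1.09, 0.58 and 2.17 CPM, OIR gave 7.78, 9.86 and 9.26 CPM, and the rise was 2.78 ± 0.56 (edgeR adjusted p = 6.94e-05). Serpina3n is 1 of a cluster of close paralogs, so its counts depend on how reads that match several of them were handled, which is not given. Its call held in both labels in every alternative in which it was tested. The 10 listed paralogs had few reads, Serpina3g leading with 6 in WT OIR and 10 in Casp1 KO OIR, against 174 and 125 for Serpina3n.

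Timp1, an inhibitor of matrix metalloproteinases, lies on chromosome X (20870166 to 20874735, plus strand), inside the gene Syn1, which is transcribed from the other strand. It had no reads in WT normoxia and 5, 10 and 0 in WT OIR, so OIR replicate 3 was no higher than normoxia. Set against a floor of 3 reads over the normoxia group, the pooled level was 10.9-fold higher in OIR, with a counting interval that began at 7.81. The test did not pass (edgeR adjusted p = 0.266). The Casp1 KO label had 0, 0 and 3 reads in normoxia and 8, 3 and 1 in OIR, a ratio of 3.75 with a counting interval from 1.01 to 20.7 (edgeR adjusted p = 0.706). Syn1 had the opposite direction, with log2 fold changes of -0.56 ± 0.22 (edgeR adjusted p = 0.156) in WT and -0.65 ± 0.19 (edgeR adjusted p = 0.0220) in Casp1 KO. The Timp1 promoter is shown because it alone of the 9 held ACGTG, the core of the hypoxia response element bound by HIF, on either strand. This short motif occurs in 19.6% of all promoters. The match, in capitals on the plus strand, lies 82 bases before the start site:
Timp1, chrX:20870011-20870160: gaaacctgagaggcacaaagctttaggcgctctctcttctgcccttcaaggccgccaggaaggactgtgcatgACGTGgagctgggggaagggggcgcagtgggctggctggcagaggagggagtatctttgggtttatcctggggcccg
The Stat3, Serpina3n, Edn2, Fgf2 and Il6st windows held none of the 3 motifs.

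**Figure D2:**
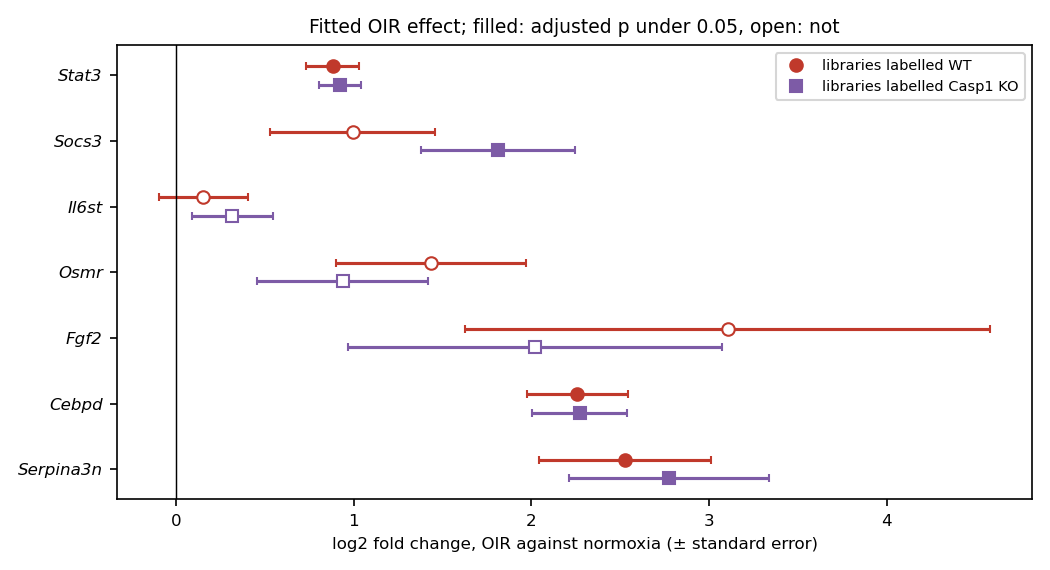
Fitted log2 fold change of OIR against normoxia for the 7 genes with more than 3 reads in every group, with the standard error as bars (circles, libraries labelled WT; squares, labelled Casp1 KO; filled, adjusted p under 0.05). Stat3, Cebpd and Serpina3n are filled in both labels at near the same place, such as 2.26 and 2.27 for Cebpd, and Il6st lies near 0.

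The order of the levels changed with OIR. QuantSeq reads come from the 3′ end of a transcript, so CPM values were compared between genes without division by length. In WT normoxia the mean CPM ran from Stat3 (73.1) through Il6st (20.9), Cebpd (6.52), Socs3 (4.42), Osmr (2.69) and Serpina3n (1.92) to Fgf2 (0.163) and Lif (0.118), with Edn2 and Timp1 at 0. In WT OIR it ran from Stat3 (135.7) through Cebpd (31.2), Il6st (23.3), Serpina3n (11.4), Socs3 (8.54), Osmr (7.34), Edn2 (2.83), Fgf2 (1.996) and Timp1 (1.02) to Lif at 0. Cebpd thus passed Il6st, and Serpina3n passed Socs3 and Osmr, although the ranges of Cebpd and Il6st, of Serpina3n and Socs3 and of Socs3 and Osmr overlapped among the 3 OIR libraries. Stat3 was above every other gene in each library, and Edn2 was below Osmr in each WT OIR library.

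The size of the OIR response was set against the genotype label in 3 ways. Between the labels in normoxia 0 of the 10 genes were called, against 1.04% of all genes in either direction, and in OIR 0 were called, against 0.575%. For the difference between the 2 OIR responses, the interaction, 0 were called, against 1.13%. At an unadjusted p under 0.05 there was also 0 in each of the 3, where 8.63%, 8.36% and 9.77% of all genes passed, and DESeq2 called 0 in each. For Stat3 the interaction was 0.01 on the log2 scale with a 95% interval from -0.36 to 0.39, for Cebpd -0.01 with an interval from -0.75 to 0.72, for Serpina3n 0.23 from -1.21 to 1.68 and for Socs3 0.79 from -0.47 to 2.06. The Stat3 interval was narrow, whereas those of Serpina3n and Socs3 took in differences of several fold, so a p that missed the threshold does not show that the labels responded alike. No interaction fold is given for Edn2 and Timp1, which had no reads in WT normoxia.

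Since the OIR contrast does not need the genotype labels to be right, it was also fitted to all 12 libraries with the label as a covariate, a choice made after seeing the data. In this fit 6 of the 10 genes were called higher, against 2.32% of 24484 genes. Osmr joined at 1.19 ± 0.37 (edgeR adjusted p = 0.0341), and Socs3 at 1.39 ± 0.33 (edgeR adjusted p = 0.00117), beside Stat3 at 0.90 ± 0.10, Cebpd at 2.27 ± 0.20, Serpina3n at 2.64 ± 0.38 and Edn2 (edgeR adjusted p = 3.71e-06). Fgf2 stayed short of the threshold at 2.53 ± 0.86 (edgeR adjusted p = 0.0654), and DESeq2 called it (adjusted p = 0.0365). Osmr lost its call when any 1 of 7 libraries was left out, with an adjusted p of up to 0.115, and Socs3 lost it without Casp1 KO OIR replicate 3 (edgeR adjusted p = 0.0550).

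The other genes of the pathway were read from 9 lists and a list of Serpina3 paralogs, 102 genes in all, of which 86 were tested in the WT label and 85 in the Casp1 KO label. These lists too were chosen with earlier results of these data known. In the WT label 4 were called higher and 3 lower, where 1.58% and 2.29% of all genes were, and in the Casp1 KO label 10 higher and 1 lower, where 2.61% and 2.03% were, with median log2 fold changes of 0.10 and 0.17. Of 18 acute-phase and other STAT3 targets, 15 were tested in the WT label and 3 were called higher, and 16 in the Casp1 KO label and 7 were called higher. A2m, alpha-2-macroglobulin, rose in both labels, from 9.60 ± 2.65 to 29.7 ± 7.53 CPM in WT (SD, n = 3) with a log2 fold change of 1.66 ± 0.27 (edgeR adjusted p = 3.19e-07), and by 1.44 ± 0.25 in Casp1 KO (edgeR adjusted p = 1.07e-06). Cp, ceruloplasmin, the copper-carrying ferroxidase, rose by 0.91 ± 0.14 in WT (edgeR adjusted p = 4.04e-08) and by 0.76 ± 0.11 in Casp1 KO (edgeR adjusted p = 2.33e-09). Lcn2, the iron-sequestering lipocalin 2, was called in the WT label alone, from 1.82 ± 1.13 to 13.7 ± 8.79 CPM (SD, n = 3; log2 fold change 2.75 ± 0.44, edgeR adjusted p = 1.51e-07), and stood at 0.76 ± 0.44 in Casp1 KO. Junb, an AP-1 subunit, was called in the Casp1 KO label at 1.70 ± 0.24 (edgeR adjusted p = 3.09e-10) and not in WT at 0.74 ± 0.25, and so was the interleukin-1 receptor gene Il1r1, at 2.17 ± 0.58 (edgeR adjusted p = 0.00723) and 0.69 ± 0.43. The interaction did not pass for Lcn2 (-2.004 ± 0.63, edgeR adjusted p = 0.0912), Junb (0.94 ± 0.35, edgeR adjusted p = 0.226) or Il1r1 (1.46 ± 0.72, edgeR adjusted p = 0.487), so these genes are not shown to differ between the labels.

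In the lists upstream of STAT3 too few genes were tested to read a count of 0 against the 3.88% and 4.64% of all genes called in either direction. None of the 9 IL-6 family ligands was called in either label, 6 and 5 being tested, and Osm, the ligand of the Osmr receptor, had no reads in any library, while Il6 had 3 in all. Of the gp130 family receptors 0 of 5 were called in each label, and Lifr, the partner of gp130 for leukemia inhibitory factor, measured 170.2 ± 8.95 and 184.5 ± 26.4 CPM in WT normoxia and OIR and at 175.0 ± 5.31 and 174.2 ± 7.70 CPM in Casp1 KO (SD, n = 3). Of the Janus kinases and other STAT genes 0 of 10 were called in each label, with Stat5b nearest in WT at -0.74 ± 0.26 (edgeR adjusted p = 0.0812). Of 12 inhibitors of the pathway other than Socs3, Pias3 alone was called, in WT at 0.55 ± 0.17 (edgeR adjusted p = 0.0403). It measured 41.9, 52.6 and 50.2 CPM in WT normoxia and 54.9, 59.1 and 99.2 CPM in WT OIR, the highest in replicate 3, the library that stood apart. In Casp1 KO, Pias3 measured 57.9 ± 12.5 and 60.7 ± 5.07 CPM in normoxia and OIR (SD, n = 3). At an unadjusted p under 0.05 edgeR gave 17 of the 86 and 20 of the 85 genes of all lists, where 12.6% and 13.6% of all genes passed.

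The relatives of the other members were mixed. In the list of fibroblast growth factors, their receptors and their feedback genes, Fgf13 fell in both labels, by 1.24 ± 0.20 in WT (edgeR adjusted p = 1.51e-07) and by 0.59 ± 0.18 in Casp1 KO (edgeR adjusted p = 0.0290). Fgf1 fell by 1.10 ± 0.21 (edgeR adjusted p = 2.94e-05) and Fgf12 by 0.60 ± 0.18 (edgeR adjusted p = 0.0360) in WT, where the 3 called genes of 17 all fell, and Spry2, a feedback inhibitor, rose by 0.38 ± 0.10 in Casp1 KO (edgeR adjusted p = 0.00961). Fgf12 and Fgf13 encode intracellular relatives that do not act as secreted growth factors. Of the TIMP and metalloproteinase genes, Timp3 rose by 0.79 ± 0.09 (edgeR adjusted p = 9.30e-15) and Timp2 by 0.42 ± 0.09 (edgeR adjusted p = 8.33e-05) in Casp1 KO and 0 of 7 were called in WT. In the C/EBP family 0 of 5 and in the endothelin system 0 of 6 were called in each label, and the endothelin receptor gene Ednrb measured 7.26 ± 0.87 and 8.41 ± 0.71 CPM in WT normoxia and OIR (SD, n = 3). None of the Serpina3 paralogs was called in either label, with 3 of 10 tested. Between genotype labels, and for the interaction, 0 of the listed genes were called, with 6 of 84 in normoxia, 7 of 85 in OIR and 14 of 89 for the interaction at an unadjusted p under 0.05, beside 8.63%, 8.36% and 9.77% of all genes.

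**Figure D3:**
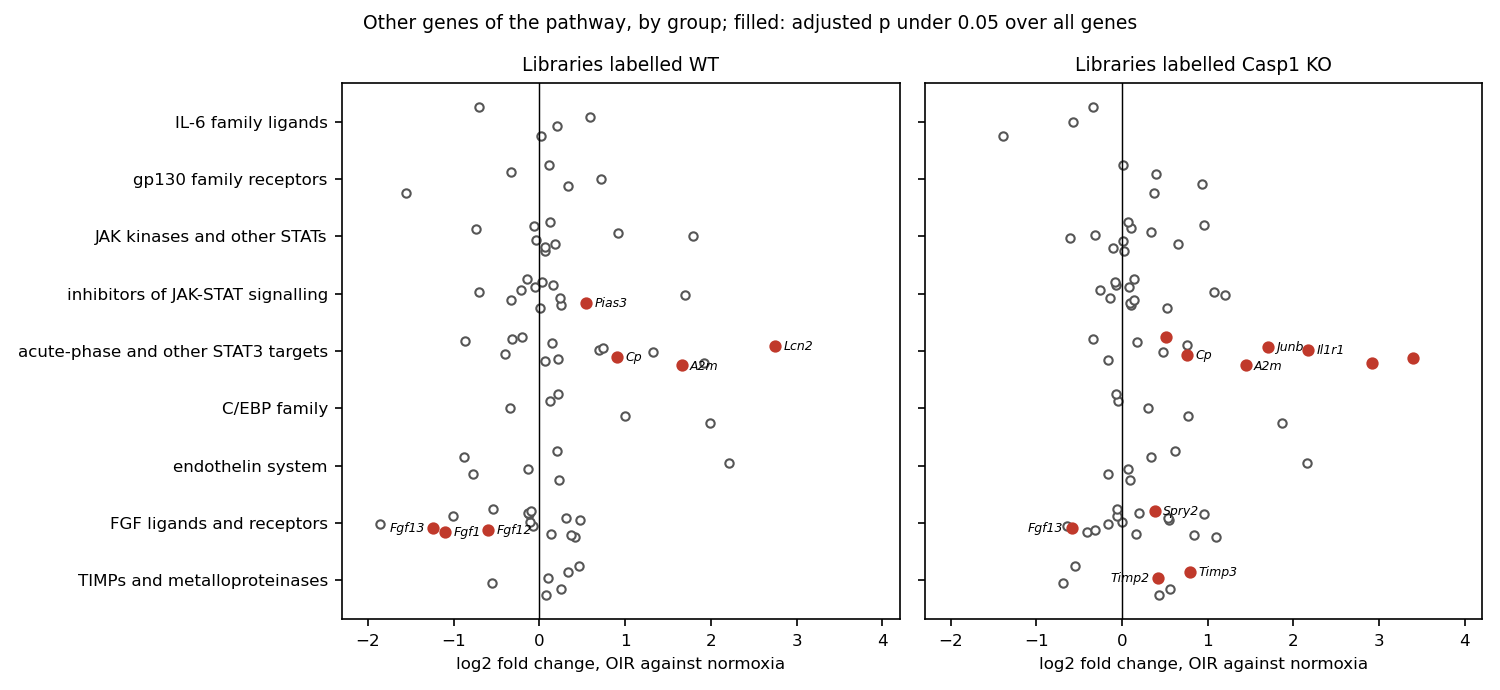
Fitted log2 fold change of OIR against normoxia for the other genes of the pathway, 1 point a gene and 1 line a list, in the libraries labelled WT (left) and Casp1 KO (right); filled points have an adjusted p under 0.05 and up to 4 a list are named. Filled points to the right lie mostly among the acute-phase and other STAT3 targets, and 0 of the IL-6 family ligands, receptors, kinases and STAT genes are filled.

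Marker genes of the cells that could carry these transcripts moved as well, some of them in 1 label only. The 10 microglia and macrophage markers summed to 61.6 to 75.7 CPM in WT normoxia and 114.3 to 115.3 CPM in WT OIR, and to 51.8 to 68.8 and 107.6 to 126.6 CPM in Casp1 KO, beside the rises of Stat3, Cebpd and Serpina3n in both labels, with 3 and 4 of the 10 called higher. The summed level of the 8 Müller glia markers, of which Glul made up the largest share, went opposite ways, from 2170 to 2328 CPM in WT normoxia to 1601 to 1643 CPM in WT OIR and from 1584 to 1689 to 2158 to 2269 CPM in Casp1 KO, while Stat3, Cebpd and Serpina3n rose in both. Of these markers 3 were called lower in WT and 6 higher in Casp1 KO, and not all of them followed the sum: Sox9 measured 71.4 ± 5.63 and 94.95 ± 7.56 CPM in WT normoxia and OIR (SD, n = 3), not called, and 58.0 ± 4.10 and 121.3 ± 14.9 CPM in Casp1 KO, called higher. For the interaction 4 of the 8 were called, against the 1.13% of all genes above, and in normoxia 5 of the 8 were called lower in the Casp1 KO label than in the WT label. Gfap, the intermediate filament of astrocytes and reactive Müller glia, rose by 1.62 ± 0.18 in WT (edgeR adjusted p = 1.80e-15) and by 2.31 ± 0.17 in Casp1 KO (edgeR adjusted p = 1.12e-37). It is 1 of 4 astrocyte markers, of which 1 was called higher and 1 lower in each label. The 4, of which Aldoc made up the largest share, summed to 388.4 to 482.9 CPM in WT normoxia and 382 to 387 CPM in WT OIR. In Casp1 KO they summed to 384.9 to 411.6 and 403.1 to 470.2 CPM. The 5 retinal ganglion cell markers, of which Nefl made up the largest share, summed to 1793 to 1991 CPM in WT normoxia and 961.7 to 1179 CPM in WT OIR. In Casp1 KO they summed to 2014 to 2168 and 1172 to 1183 CPM. Of the 5, 4 were called lower in WT and 3 in Casp1 KO, against 2.29% and 2.03% of all genes. Neutrophil markers were at or near 0, at 1.45 CPM at most with 4 of 6 at 0 in WT OIR and 1.11 CPM with 3 of 6 at 0 in Casp1 KO OIR. Lens markers summed to 466.8 to 488.3 CPM in Casp1 KO normoxia and 826.4 to 936.3 CPM in Casp1 KO OIR, with 4 of 6 called higher. In WT they summed to 457 to 509.2 and 271 to 630.8 CPM, with 0 of 6 called. Retinal pigment epithelium markers summed to 911.2 to 927.2 and 1267 to 1352 CPM in Casp1 KO, with 3 of 5 called higher. In WT they summed to 972.6 to 1007 and 874.8 to 979.1 CPM, with 0 called higher and 1 lower. The 1 called lower was Rlbp1, which is also 1 of the 8 Müller glia markers. It measured 414.6 ± 3.72 and 252.4 ± 27.9 CPM in WT normoxia and OIR (SD, n = 3). Rpe65, Ttr, Rdh5 and Best1 had higher means in WT OIR than in WT normoxia, none of them called. Endothelial markers summed to 99.2 to 117.9 and 115.8 to 186.1 CPM in WT, with 1 of 7 called higher. In Casp1 KO they summed to 112.1 to 130.2 and 125.3 to 145.2 CPM, with 0 of 7 called. Red blood cell markers summed to 120.6 to 146.3 CPM in WT normoxia and 90.9 to 397.1 CPM in WT OIR, where the lowest library was below all normoxia libraries, with 4 of 5 called higher. In Casp1 KO they summed to 150.5 to 155.3 and 128.7 to 167.1 CPM, with 0 of 5 called. The part of any of these cells in the levels of the 10 genes was not tested.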

How the data were processed

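Retinal RNA was made into QuantSeq 3′ libraries, and the deposited table gives whole-number read counts by gene symbol, not normalized. According to the submitters' processing notes and the study's methods, the authors aligned reads to mm10 with STAR 2.7.5a and counted them with HTSeq 0.6.1; the gene annotation, strand setting and treatment of reads with several matches are not given in the sources used here. Groups came from the sample labels. Tests were run on these counts with edgeR 4.0.16 (R 4.3.3), using its quasi-likelihood functions glmQLFit and glmQLFTest after TMM scaling. Genes needed 1 count or more among the libraries of a fit, and p-values were adjusted over all genes tested (Benjamini-Hochberg) and called under 0.05. Each 2-group comparison used its own 6 libraries, and the interaction all 12. Standard errors were derived from the fold change (prior count 0.125) and the test statistic, and 95% intervals from the standard error. The p-values were those of a normal distribution for the fold change over its standard error. A gene's own spread over 3 libraries therefore weighed little in them, and very small p-values should be read with that limit. A group without reads was set to a floor of 3 counts over the group, and with 1 to 3 reads a ratio of pooled reads was given. Both were given with an exact counting interval, of which a group without reads leaves only the lower end. With no molecular identifiers, these intervals cover counting error only. A gene with no library above 3 counts got no fold. All 10 genes were tested in every comparison and are named for OIR against normoxia within each label, and only some of them for the interaction. At most 4 called genes per list are named by smallest p, and for members with a mean of at least 10 CPM the 3 most alike. The 10 genes, the lists and the tests were chosen with earlier results of these data known. Alternatives were DESeq2 1.42.0 size factors or test, library size alone, filterByExpr, at least 10 counts in every library, a single fit of all 12 libraries, a block on replicate number and leaving out each library. The scripts were tested on simulated data. Promoters came from RefSeq (GRCm38.p6) and positions from GENCODE vM21.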

Additional observations from a re-analysis of the deposited data

Results flagged for a closer look

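The summed level of the 8 Müller glia markers, the cells best known for the response described here, went one way in every OIR library labelled WT and the other way in every one labelled Casp1 KO: the mean in OIR minus that in normoxia was -640.5 CPM in the WT label and 555.4 CPM in the Casp1 KO label. The difference between the labels in this sum was not tested. Of the single markers, edgeR called 4 of the 8 for the interaction, with a median log2 difference of 0.80 over the 8, and 5 of the 8 were called lower in Casp1 KO than in WT in normoxia, with a median of -0.42.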

How the results depend on the processing

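Stat3, Cebpd and Serpina3n kept their OIR calls in both genotype labels in every alternative that tested them, and Edn2 kept its call in the WT label. The calls were weaker under filterByExpr, where the edgeR adjusted p in the WT label was 0.00137 for Stat3, 0.000197 for Cebpd and 0.0146 for Serpina3n. A minimum of 10 counts in every library, which leaves 4 of the 10 genes to test, lowered the number called from 4 to 2 in the WT label, from 5 to 3 in the Casp1 KO label and from 6 to 3 over all 12 libraries. Leaving out each library in turn gave 3 to 5 called genes in the Casp1 KO label, with 3 without OIR replicate 3. Genes with few reads (Lif, Timp1, Fgf2 and, in normoxia, Edn2) are limited by depth, and 47 fits of single genes gave no value because a filter removed the gene or DESeq2 gave no adjusted p.

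Of all genes, the number called in the WT label was 886, with 586 under filterByExpr and 545 to 1130 when each library was left out (545, 580 and 581 without normoxia replicates 1, 2 and 3). In the Casp1 KO label it was 1038, with 642 in one fit of all 12 libraries. Between labels in normoxia it was 233, with 444 in DESeq2, 109 in one fit of all 12 and 128 to 199 without 1 library (143 and 128 without Casp1 KO replicates 2 and 3). Between labels in OIR it was 131, with 82 in DESeq2, 16 under filterByExpr, 17 with 10 counts in every library, 255 in one fit of all 12, and 47 to 815 without 1 library (815 and 47 without WT replicates 3 and 2, and 72, 59 and 72 without Casp1 KO replicates 1, 2 and 3). For the interaction it was 277, with 139 under filterByExpr, 152 with 10 counts in every library and 174 to 597 without 1 library (597 and 174 without WT OIR replicates 3 and 2, and 184 without Casp1 KO normoxia replicate 1). The causes were not tested.

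Signs turned for some log2 fold changes, none of them called. Without 1 library, Il6st in the WT label ran from -0.0023 to 0.33. Between labels in normoxia the ranges were -0.83 to 4.603 for Fgf2, -0.18 to 0.20 for Il6st, -0.0615 to 0.16 for Stat3 and -1.16 to 0.23 for Serpina3n. Between labels in OIR they were -0.11 to 1.07 for Edn2, -0.11 to 1.48 for Fgf2, -0.22 to 0.18 for Osmr, -0.0520 to 0.18 for Stat3, -0.15 to 0.67 for Socs3, -0.0435 to 0.39 for Cebpd and -1.19 to 0.55 for Timp1. For the interaction they were -4.21 to 1.36 for Fgf2, -0.0389 to 0.36 for Il6st, -0.12 to 0.15 for Stat3, -0.24 to 0.24 for Cebpd and -0.38 to 0.79 for Serpina3n. With library size alone, Osmr between labels in OIR was -0.0023 and the Stat3 interaction -0.0043, which was -0.0071 with 10 counts in every library.

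Replicate numbers did not pair the samples: same-numbered libraries deviated together with correlations of -0.0606 to 0.0873 over 9428 genes. With the number as a block, the members called stayed at 4 and 5, and all genes called were 794 in the WT label and 1028 in the Casp1 KO label. The block turned Il6st between labels in normoxia to -0.000816 and Timp1 between labels in OIR to 0.10.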

Other observations

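Over the 12 libraries, the genes whose levels followed Stat3 most closely were Crym, which encodes a thyroid hormone binding protein, Plekhb1, a photoreceptor gene, and Drd4, a dopamine receptor. Likeness was measured as the root mean square difference of log2 (CPM + 1), each gene centred on its own mean, among 9427 other genes with a mean of at least 10 CPM, and was 0.17, 0.18 and 0.19 beside a median of 0.52. For Cebpd they were S100a6 at 0.27, Tagln2 at 0.42 and Pcolce at 0.43, beside a median of 1.11. For Il6st they were Prpf6 at 0.13, Ipo13 at 0.18 and Cars2 at 0.18, beside a median of 0.38. These are descriptions of 12 libraries that share the OIR contrast.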
